A study of Mus musculus with 3 samples.

Results

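FOG2 peaks at immediate early and stress-response transcription factor genes were examined in the ventricles of mouse embryos. The 10 genes were Atf3, Fos, Jun and Junb of the AP-1 and ATF families, Klf2, Klf4 and Klf6 of the Krüppel-like family, and Egr1, Ier2 and Myc. A peak was assigned to one of them when, of 21631 protein-coding gene bodies, that gene's body lay nearest to the peak summit and within 100 kb of it. The genes were chosen by family and by the peak positions and folds of this same list, so the counts and folds below describe them and carry no test. By this rule 8 of the 6166 deposited peaks were assigned to 4 of the 10 genes.

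Chromatin came from heart ventricles at E12.5 (days of gestation), in 2 FOG2 pulldown libraries and 1 input library of fragmented chromatin without pulldown. Per the labels' protocols the embryos were Fog2flbio/flbio;Rosa26BirA/BirA, that is, homozygous for a tagged FOG2 allele and for the biotin ligase BirA at Rosa26, and about 20 ventricles made up each biological replicate. The labels also give the genotype as WT for all 3 libraries, which differs from the protocol, and on either reading the input shares it with the pulldown. The authors pooled the pulldowns before they called peaks, so every fold, fragment number and width below is a single value with no spread between replicates. Whole ventricles hold cardiomyocytes, endocardium, epicardium and blood, and the list does not say in which of these cells FOG2 was bound.

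FOG2, encoded by Zfpm2, is a zinc finger cofactor that binds GATA factors and is brought to DNA by them. Immediate early genes are transcribed within minutes of growth factor, stretch or stress signals, without new protein synthesis, largely through SRF and CREB already at their promoters. FOS and JUN proteins pair to form AP-1. ATF3 belongs to the same leucine zipper class and is strongly induced by cell stress. The Krüppel-like factors bind CACCC and GC-rich boxes, and KLF2 and KLF4 are known in endothelium for their response to blood flow. MYC, a leucine zipper factor that pairs with MAX, drives cell growth.

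RefSeq promoter sequences of GRCm38.p6, the mm10 assembly, were found for 7 of the 10 genes, not for Egr1, Ier2 or Myc. The 250 bases upstream of the annotated start are shown for 3 of them. Atf3 is shown because these bases lay wholly within its peak. Klf4 is shown because its peaks lay downstream of these bases, and Jun because it held the same GATA-type motif as Atf3 without a peak. Each is read 5′ to 3′ on the gene's own strand, the minus strand in all 3, and capitals mark GATAA, a core of the sequence bound by GATA factors.
Atf3, chr1:191183334-191183583: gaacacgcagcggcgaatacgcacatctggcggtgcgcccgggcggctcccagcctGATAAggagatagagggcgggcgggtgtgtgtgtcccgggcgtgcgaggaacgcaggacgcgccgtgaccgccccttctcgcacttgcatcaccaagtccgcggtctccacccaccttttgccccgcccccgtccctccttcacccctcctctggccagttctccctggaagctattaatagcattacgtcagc
Klf4, chr4:55532476-55532725: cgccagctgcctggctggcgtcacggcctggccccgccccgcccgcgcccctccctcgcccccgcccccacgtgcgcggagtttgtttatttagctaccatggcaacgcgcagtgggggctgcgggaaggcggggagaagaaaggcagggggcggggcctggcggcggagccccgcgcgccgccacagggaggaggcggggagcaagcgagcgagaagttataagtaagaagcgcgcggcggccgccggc
Jun, chr4:95052223-95052472: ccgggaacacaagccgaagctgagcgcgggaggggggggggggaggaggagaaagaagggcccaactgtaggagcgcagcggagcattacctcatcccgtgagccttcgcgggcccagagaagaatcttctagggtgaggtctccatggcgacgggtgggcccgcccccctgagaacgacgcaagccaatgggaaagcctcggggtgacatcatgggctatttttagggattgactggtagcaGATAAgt

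The count of these genes with a peak was 4 of 10, while 13.6% of all protein-coding genes had at least 1 summit. At least 2 summits were assigned to 3 of the 10, Klf4, Klf6 and Myc, and to 4.32% of all protein-coding genes. At least 3 were assigned to Klf4 and to 1.95% of all protein-coding genes. A summit of 10-fold or more over control was assigned to 2 of the 10, Atf3 and Klf4, and to 3.01% of all protein-coding genes. Because the assigned peaks were part of the choice, nothing is read from these shares. The genes together had 8 summits, where their territories would hold 2.55 at the mean density of assigned summits. A territory is the stretch of genome within 100 kb of a gene body and nearer to it than to any other protein-coding gene.

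Atf3, whose product is a stress-induced leucine zipper factor, had a single peak, and it covered the promoter. The gene lies on chromosome 1 from 191170296 to 191183333, and the peak spanned 191183222 to 191186353 with its summit 0.255 kb upstream of the gene start. Measured from the start, the interval ran from 111 bp inside the gene to 3020 bp upstream, so 96.4% of its bases were upstream. At 3132 bp it was the fourth widest of the 6166 peaks, whose median width was 251 bp. The fold at the summit was 17.8, and 3.96% of all peaks reached that fold.

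The summit of the Atf3 peak rested on 71 pulldown fragments (95% Poisson interval 55.5 to 89.6) against a control level of 3.04. Fragment numbers were recovered from the deposited fold and p-value, and their intervals cover counting error only. That control level stood out, since 0.924% of all peaks had one as high and the median over all peaks was 0.828. Control levels come from 1 input library, and no interval was computed for them. Among the 77 peaks of 1 kb or wider, 2 had a control level as high as that of Atf3, itself included, and the median was 0.724. Whether the raised control level bears on the fold at Atf3 was not tested.

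Peaks over promoters were uncommon in this list. Of 21045 promoter windows of protein-coding genes, each 250 bases before to 50 bases after an annotated start, 0.423% overlapped a peak, and 8 overlapped a peak of 1 kb or wider. Among the 7 promoter windows found for the 10 genes, that of Atf3 overlapped a peak and the other 6 did not.

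Klf4, best known as a reprogramming factor and as a regulator of endothelial and smooth muscle cells, had 3 peaks, all inside its body. The gene spans 55527137 to 55532475 on chromosome 4 and is 5.34 kb long. The strongest peak, at 55529653 to 55531032, was 30.7-fold over control and 1380 bp wide, and its summit lay 2192 bp downstream of the gene start. By fold it ranked 47 of the 6166 peaks, and by width 28. Nearer the start, the peak at 55531549 to 55531835 was 12.4-fold with its summit 786 bp downstream, and nearer the far end the peak at 55528079 to 55528347 was 13.6-fold with its summit 4235 bp downstream.

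The middle Klf4 summit rested on 52 pulldown fragments (38.8 to 68.2) at a control level of 0.724. Its neighbours had 19 fragments (11.4 to 29.7) at a control level of 0.608 nearer the start, and 21 (13.0 to 32.1) at 0.621 nearer the far end. The interval of the middle summit did not overlap those of its neighbours, while theirs overlapped each other. Their control levels were close to 0.588, the lowest in the list. No Klf4 peak reached the promoter sequence shown above, and the nearest ended 640 bp inside the gene. The intervals were separated by stretches of 516 and 1305 bp outside any peak.

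**Figure D1:**
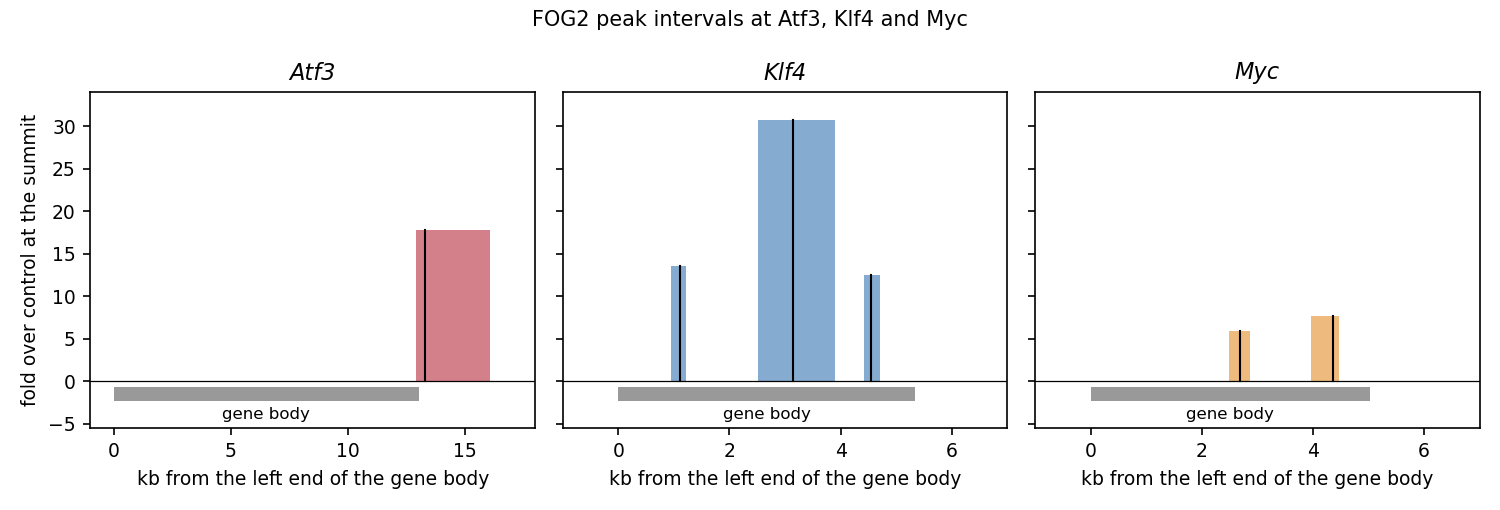
FOG2 peak intervals at Atf3, Klf4 and Myc, drawn to scale against the gene body (grey), with distance in kb from the left end of the gene body along the chromosome and the fold over control at the summit as the height; black lines mark summits. The 3132 bp interval of Atf3 lies almost wholly outside its gene at the right-hand end, where the gene starts, whereas the 3 intervals of Klf4 and the 2 of Myc lie inside theirs.

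Myc, whose product promotes growth and cell division, had 2 peaks inside its body and its next summit 241 kb outside it. The gene spans 61985341 to 61990361 on chromosome 15. The stronger peak, at 61989299 to 61989800, was 7.70-fold over control with 13 pulldown fragments (6.92 to 22.2). The other, at 61987827 to 61988201, was 5.86-fold with 12 fragments (6.20 to 21.0). Their fragment intervals overlapped almost wholly, so no order between them was detectable at this depth. The summits were 1.68 kb apart, and control levels were 0.817 at the stronger and 1.22 at the other.

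Several summits inside such a short gene were rare. Of 7742 protein-coding genes of 10 kb or less, 58 held a summit in the body (0.749%), 6 held at least 2, and 2 held at least 3. The 2 were Klf4 and H2-K1, a histocompatibility gene, and Myc was among the 6. Peaks covered 36.3% of the Klf4 body, and 5 protein-coding genes, Klf4 included, were covered to that extent or more. They covered 17.5% of the Myc body, a share that 10 genes reached, Myc included. Exon positions were not used here, so whether the intervals follow exons, as spliced copies of a gene would, was not tested. The list alone does not show that the fragments at Klf4 and Myc came from bound chromatin, and their folds and coverage are given with that limit.

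Klf6, a Krüppel-like gene that responds to tissue injury, had 2 weak peaks far from its body. The gene spans 5861489 to 5870393 on chromosome 13, and the next protein-coding gene, Pitrm1, lay 722 and 619 kb from its summits. The peak at 5826261 to 5826480 was 4.06-fold over control with 8 fragments (3.45 to 15.8), 35.2 kb upstream of the gene body. The peak at 5929010 to 5929180 was 4.64-fold with 7 fragments (2.81 to 14.4), 58.6 kb beyond the other end of the body. Of all peaks 98.3% and 90.1% were at least as strong, and both widths, 220 and 171 bp, were below the median. The second summit lay within Gm46401, a gene of the RefSeq table that is not protein-coding.

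The 8 summits thus ranged from 4.06- to 30.7-fold, with a median of 10.1 against 6.39 over all 6166 peaks. Their median width was 331 bp against 251 bp over all peaks. Inside the body of a gene lay 5 of the 8 (62.5%), against 45.9% of all summits. That second share includes the 23.7% of summits with no protein-coding gene within 100 kb, which the rule could not assign. Of the 4702 summits with such a gene, 2830 lay inside a body, so the 2 shares are not of like sets. A summit inside the body was present in 2 of the 10 genes, Klf4 and Myc, and in 8.31% of all protein-coding genes. No whole number of fragments other than the one given matched the deposited values of any of the 8.

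**Figure D2:**
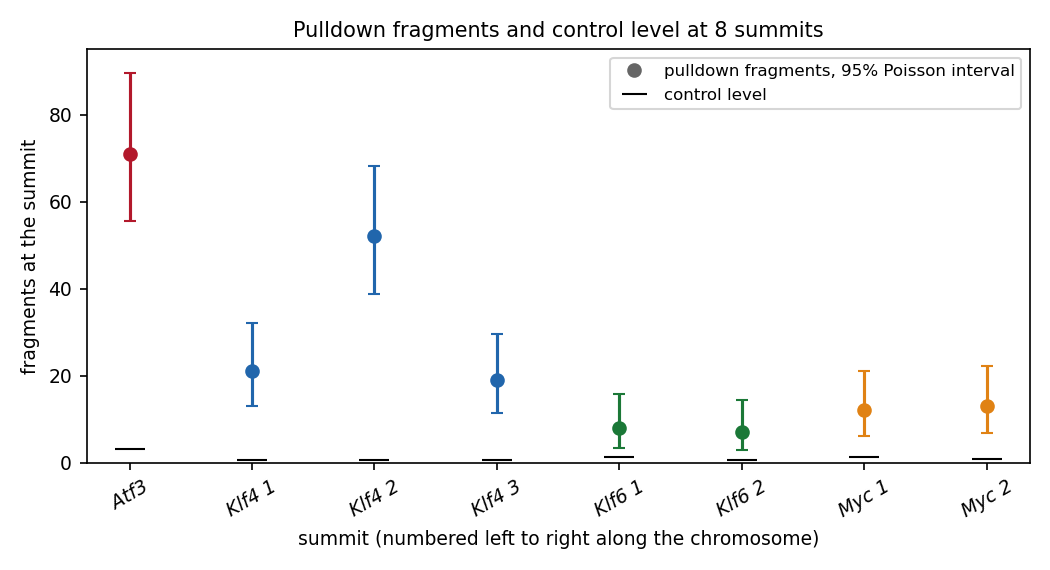
Pulldown fragments at the 8 summits assigned to the 10 genes, with exact 95% Poisson intervals for counting error, and the control level at each as a black dash. The summit of Atf3 (71 fragments) and the middle one of Klf4 (52) stand above the other 6, which have 7 to 21, and the control level is highest at Atf3, at 3.04.

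The 8 peaks also differed in width. The Atf3 peak and the strongest Klf4 peak were the only ones of the 8 to reach 1 kb, a width that 1.25% of all peaks reached. The median fold of all peaks that wide was 23.7, above the 17.8 of Atf3 and below the 30.7 of the Klf4 peak. The outer Klf4 peaks, at 269 and 287 bp, were near the median width. Of all peaks 7.77% and 9.50% were at least as strong as these.

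**Figure D3:**
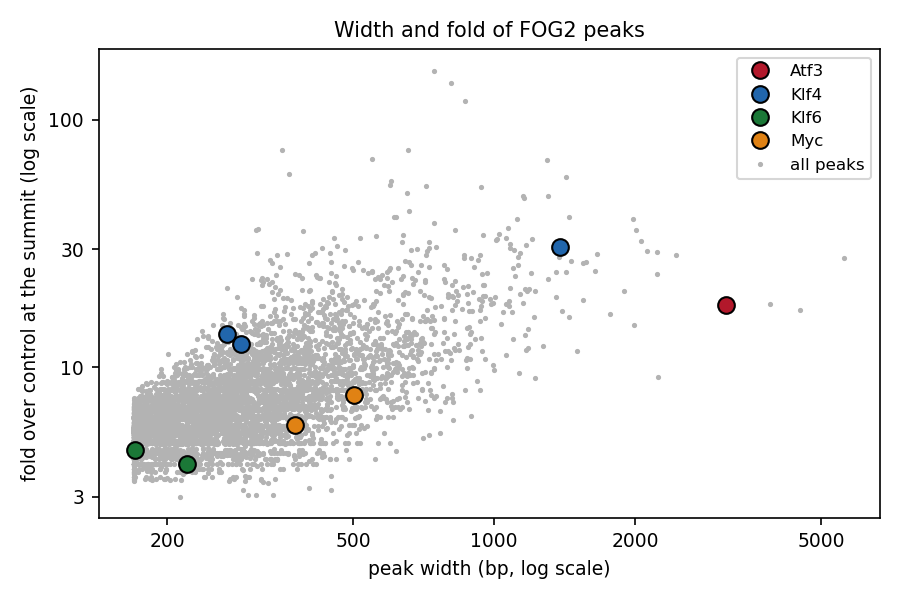
Width in bp against fold over control at the summit for all 6166 peaks (grey) and the 8 peaks assigned to the 10 genes (coloured by gene), both axes logarithmic. Atf3 lies far to the right at 3132 bp and the strongest Klf4 peak high at 30.7-fold. Both Klf6 peaks lie at the low end of fold, with widths of 220 and 171 bp, below the median of 251 bp.

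No summit was assigned to Fos, Jun, Junb, Klf2, Egr1 or Ier2. The list holds only peaks that passed the authors' caller, with a lowest fold of 3.01, so a gene without a peak may still carry weaker binding that is not listed. These 6 genes were the shortest of the 10, at 3.75 kb or less, while those with a summit were 5.02 to 13.0 kb long. Their territories were 8 to 138 kb, against 78 to 209 kb for the genes with a summit. Those of Junb (8 kb), Ier2 (16 kb), Egr1 (29 kb) and Klf2 (43 kb) were below that range, and those of Fos and Jun within it. None of the 6 would hold more than 0.348 summits at the mean density, so nothing is read from their lack of a summit.

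For Fos, which encodes the partner of JUN in AP-1, the nearest summit was 141 kb away. It lay inside Jdp2, a gene for another AP-1 family protein, at 85618088 to 85618521 on chromosome 12, and reached 15.8-fold over control, from 34 fragments (23.5 to 47.5). For Jun, the nearest summit was 132 kb away at 5.47-fold with 9 fragments (4.12 to 17.1), and no protein-coding gene lay within 100 kb of it. These are the summits just outside the 100 kb limit, and the farthest assigned summit inside it was that of Klf6 at 58.6 kb. The Jun promoter holds AGATAA, 8 to 3 bases before the start, and had no peak.

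Ier2, an early response gene encoding a small nuclear protein, had a summit within 100 kb that belonged to another gene. That summit was 96.2 kb away, inside Cacna1a, and reached 8.82-fold over control, from 13 fragments (6.92 to 22.2). Junb, which encodes an AP-1 subunit, lies on the same chromosome 8, and its nearest summit, assigned to Mylk3, was 401 kb away at 5.66-fold. Klf2, the flow-responsive endothelial factor gene, was the only one of the 10 with no summit within 500 kb. Egr1, an early growth response zinc finger gene, had its nearest summit 451 kb away at 6.77-fold, assigned to Pkd2l2.

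**Figure D4:**
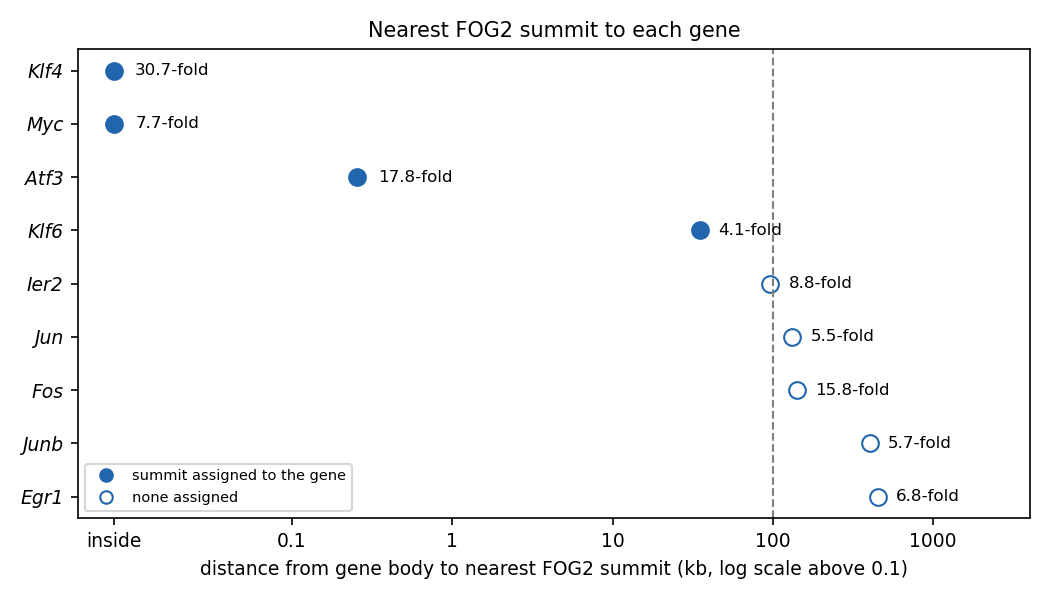
Distance in kb from each gene body to its nearest FOG2 summit (logarithmic above 0.1 kb; the strongest is taken where several lie inside the body), with the fold of that summit beside the point. Filled points are the 4 genes with an assigned summit and open points those without, Klf2 with none within 500 kb not being drawn; the dashed line marks 100 kb, and Ier2 lies just within it because its summit belongs to Cacna1a.

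Summits between 100 and 500 kb from the gene were present around 9 of the 10, all but Klf2. The share of all protein-coding genes with a summit at that distance was not computed, so nothing is read from these counts. Atf3 had 8 further summits in that range, from 5.01- to 25.5-fold, the strongest 253 kb away with 40 fragments (28.6 to 54.5) and assigned to Rps6kc1. Junb had 4, from 5.66- to 25.1-fold, the strongest 402 kb away with 70 fragments (54.6 to 88.4) and assigned to Mylk3. Fos had 2, the stronger being that inside Jdp2. Jun had 3, from 5.47- to 7.54-fold. Egr1 had 2, the stronger at 6.77-fold, and Ier2 had 1, at 6.93-fold.

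Klf6 had 7, from 4.41- to 6.84-fold, and Myc had 3, from 4.96- to 8.21-fold. Klf4 had 2, of 5.90- and 6.93-fold, both below the weakest of the 3 in its body. Which gene any of these sites acts on was not tested.

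Of the motifs sought, none was common to all 7 promoters. Exact matches to each pattern on either strand were sought in the 250 upstream bases of the 7 genes. The same was done for 21045 promoters of protein-coding genes. GATAA was present in 2 of the 7, Atf3 and Jun, and in 20.5% of all promoters. In Atf3 it was part of TGATAA, 195 to 190 bases before the start, which 6.84% of all promoters held, and in Jun part of AGATAA, which 8.84% held. CACCC, a box bound by Krüppel-like factors, was present in Atf3, Jun, Klf2 and Junb and in 54.4% of all promoters.

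The remaining motifs had no exact match in the upstream bases of the 7 genes. Variants of these patterns, and sites farther upstream, were not sought, so their absence from these promoters is not shown. They were the AP-1 motif TGANTCA, held by 6.17% of all promoters, the CRE TGACGTCA, held by 1.94%, the CArG box that SRF binds, held by 1.40%, and the T-box motif GGTGTGA, held by 3.11%. GATAA overlaps TGATAA and AGATAA by construction. A match describes the letters of the window and is not a bound site.

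Peaks at other genes of the same families and response are given beside these. In 5 lists holding 93 further genes, 23 (24.7%) had a summit, against 13.6% of all protein-coding genes, with 32 summits in all where their territories would hold 21.7 at the mean density. This order turned when only summits near genes were counted, or genes of any biotype could take a summit. Within 10 kb of a gene body, 6 of the 93 (6.45%) had a summit against 10.0% of all protein-coding genes, and with genes of any biotype 7 (7.53%) against 10.5%. The strongest fold per gene had a median of 6.55 in these 23, of 12.8 in the 4 genes described above, and of 6.93 in all 2939 protein-coding genes with a summit. The 12.8 rests on 4 genes and was 7.70 without peaks of 1 kb or wider. Summits inside the body were found in 3 of the 93 (3.23%), against 8.31% of all protein-coding genes, and the strongest peaks were 170 to 438 bp wide. None of these peaks reached the width of the Atf3 peak or of the strongest Klf4 peak.

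Among 19 other AP-1, ATF and MAF genes, 2 had a summit (10.5%, against 13.6% of all protein-coding genes), and their territories would hold 2.77 at the mean density. They were Jdp2, described above, and Creb1, which encodes the cyclic AMP response factor, whose summit lay 80.7 kb away at 11.1-fold (17 fragments, 9.90 to 27.2). Of 14 other Krüppel-like genes, 6 (42.9%) had a summit, against the same 13.6%. They had 8 summits where 5.43 would lie at the mean density, and none reached 10-fold. A summit inside the body was present in 7.14% of the 14, against 8.31% of all protein-coding genes. The highest were Klf12 (7.40-fold), Klf9 (6.93-fold), Klf7 (6.77-fold) and Klf10 (6.32-fold), all outside the gene bodies. Their fragment numbers, 10 to 14, had overlapping intervals. No summit was assigned to any of 6 EGR and NR4A genes or of 10 genes of the MYC and MAX network. Their territories would hold 1.23 and 1.72 summits at the mean density, and 13.6% of all protein-coding genes had a summit. Nothing is read from these counts of 0.

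Of 44 other early response genes, 15 (34.1%) had a summit, against 13.6% of all protein-coding genes. They had 22 summits where 10.5 would lie at the mean density. A summit inside the body was present in 2.27% of the 44, against 8.31% of all protein-coding genes. Dusp5, a MAP kinase phosphatase gene, had the strongest 31.8 kb away at 13.9-fold, resting on 21 fragments (13.0 to 32.1). Zfp36l1, for an RNA-binding protein that promotes mRNA decay, had one at 11.4-fold, 45.8 kb outside. Ccn1, for a secreted matrix protein, had 3 summits, the strongest at 11.3-fold and 41.1 kb outside. Dusp4, another phosphatase gene, had one at 8.80-fold, 54.4 kb outside. Hes1, a Notch target gene named after its values were seen, was the only one of the 15 with a summit in its body, at 6.55-fold.

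**Figure D5:**
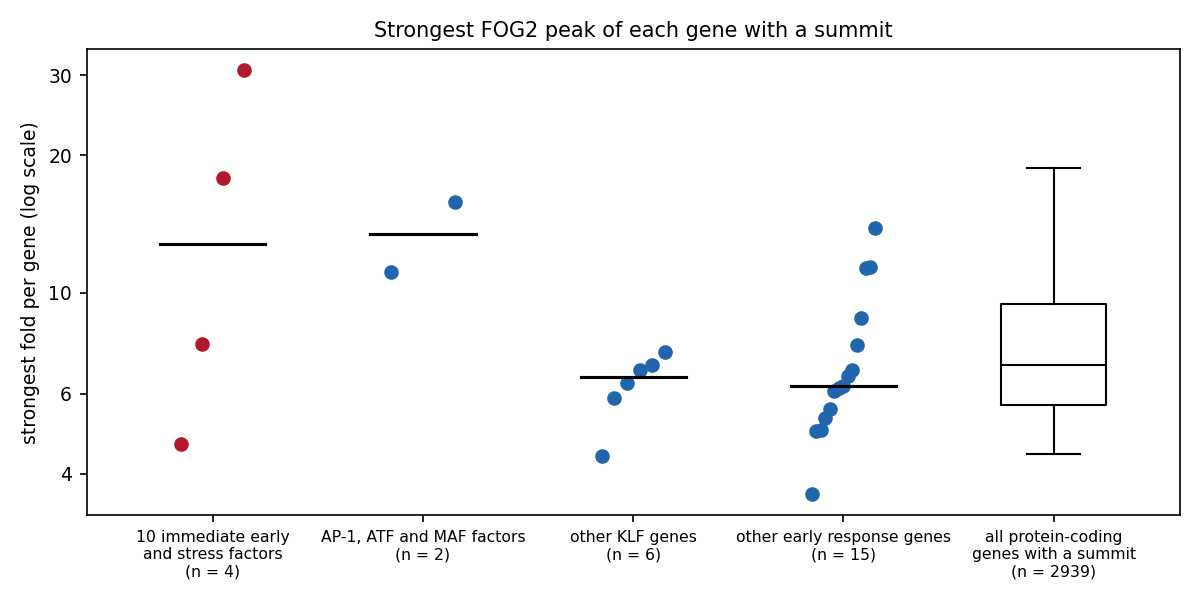
Strongest fold over control per gene (logarithmic axis) for the genes with a summit: the 4 of the 10 immediate early and stress factors (red), 3 lists of related genes (blue), and all protein-coding genes as a box of quartiles with whiskers at the 5th and 95th percentiles. Black lines are medians, 12.8 for the 4 genes and 6.93 for all genes. Klf4 at 30.7-fold is the highest point shown, and genes beyond the whiskers of the box are not drawn.

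Some genes that mark ventricular cardiomyocytes were assigned summits of moderate fold, where 13.6% of all protein-coding genes had a summit. Myl2 (strongest 9.20-fold) and Myl3 (9.37-fold) had theirs inside the body. The strongest of Myh7 (7.14-fold) lay 10.0 kb outside and that of Irx4 (8.12-fold) 89.1 kb outside. No summit was assigned to Hey2. Expression was not measured, so these peaks do not show the cell makeup of the tissue. The strongest Klf4 peak and the Atf3 peak were above all of these in fold.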

How the data were processed

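The data were 1 list of peaks in 2 FOG2 pulldown libraries pooled by the authors, with 1 input library as control. Per the submitters' processing notes, Bowtie2 2.3.2, SAMtools 1.5, Picard and MACS2 2.1.1 were used with mm10, with settings not given in the sources used here. Per the deposited file's name, peaks in blacklisted regions had been removed. In the authors' list the fold is pulldown over control at the summit, a linear ratio. The −log10 p deposited beside it, and its −log10 q, refer to the same summit. A deposited display score only restated the −log10 q (truncated after multiplying by 10, in each of 6166 peaks) and played no part.

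Summits were assigned to the nearest protein-coding gene body within 100 kb in the RefSeq table of GRCm38.p6, on the 20 chromosomes with peaks; a summit at equal distance from several genes (22 peaks) counted for each. Pulldown fragments were solved from the fold, with 1 added to both sides, and the Poisson −log10 p; a whole number matched within 0.001 in 100% of peaks, and in 83 peaks another also did. The method was tested on simulated data. The simulated fragment numbers and control levels covered those of the summits assigned to the genes described, but not the full range of the list. Territories were measured on a 1 kb grid. Depth per library is unknown, and intervals are exact 95% Poisson intervals for counting error only. Python 3.11.15, SciPy 1.17.1 and pandas 2.3.3 were used.

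The genes, lists and motifs were chosen with earlier results of these data known, and no test was run because the pooled list has no value per replicate. Named were the 10 genes with all their summits, their nearest summits, and up to 4 genes of highest fold per list. Ventricular marker genes, H2-K1 and Hes1 were named besides. An item under this rule is not reported here.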

Additional observations from a re-analysis of the deposited data

How the results depend on the processing

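The count of 4 genes with a summit, and the 8 summits, were recomputed under 8 planned settings and, chosen after seeing the data, without peaks of 1 kb or wider. The 4 became 3 in 7 of these settings. Klf6 dropped out in 6 of them, at a −log10 q or a fold of at least 5, in the stronger 50% of peaks, within 10 or 20 kb, and with genes of any biotype; Atf3 dropped out without the wide peaks. It became 5 when every gene within 100 kb was counted, which added Ier2. The median strongest fold of the genes, 12.8 as reported, was 17.8 in those first 6 settings, 8.82 with every gene within 100 kb and 7.70 without the wide peaks. Only 5 summits of the 8 were in the stronger 50% of peaks, a move of more than 1.5 times. The share of all protein-coding genes with a summit was 8.01% in the stronger 50% of peaks and 33.3% with every gene within 100 kb. Of the 93 listed genes, those with a summit numbered 12 in the stronger 50%, 6 within 10 kb, 7 within 20 kb, 7 with genes of any biotype and 40 with every gene within 100 kb, against 23 as reported. Within 10 kb, within 20 kb and with genes of any biotype, the share of the 93 fell below that of all protein-coding genes. Each setting changes these values by its construction, since it removes or adds peaks or genes. Klf4 kept its 3 summits in the 8 planned settings and 2 without the wide peaks. No paired analysis was possible because the deposited list pools both replicates. Summits of 7 to 13 fragments, as at Klf6 and Myc, carry wide counting intervals.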
